A study of Arabidopsis thaliana with 72 samples.

Results

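The type-A response regulators are a family of small proteins that damp the signal of the plant hormone cytokinin. Their mRNA levels were followed in the 2 organs, shoot and root, of young Arabidopsis thaliana plants after citral, the lemon-scented mixture of geranial and neral. The genes were taken by their locus identifiers with no filter on a measured value, but the family was chosen with earlier results of these data known. They are ARR3, ARR4, ARR5, ARR6, ARR7, ARR8, ARR9, ARR15 and ARR16, 9 of the 22122 loci of the expression table. Seedlings were 14 days old and had grown on agar plates. The treated group was given citral at 202 µM and sampled at 1, 3, 6, 12 and 24 h, and the control group was given 0.1% ethanol and sampled at these times and at 0 h. A further group, untreated, was sampled at 0 h. With shoots and roots as separate samples this gave 24 groups of 3 RNA libraries, 72 in all. No strain name is given in the labels, and nothing says that the 3 libraries of a group came from separate plates; the spread behind each p-value may therefore be technical. The series design and the agent labels name citral. The treatment protocol of the same samples names t-chalcone at 21 µM, a conflict that the sources used here did not settle; it places the treatment 7 h into a light period of 16 h, followed by 8 h of dark.

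Cytokinin is bound by membrane receptors with a histidine kinase domain, named AHK in Arabidopsis. Phosphate then passes through AHP carrier proteins to the type-B response regulators, transcription factors that switch on target genes. The type-A genes are among the first of these targets, and their mRNA is widely used as a readout of cytokinin signalling. Type-A proteins have the phosphate-receiving domain but lack the DNA-binding part of the type-B proteins, and they act back on the pathway as inhibitors. In the shoot meristem the stem cell factor WUSCHEL represses ARR5, ARR6, ARR7 and ARR15, and in the root meristem cytokinin signalling sets how early dividing cells start to differentiate.

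On build TAIR10.1 the 9 genes lie on 4 of the chromosomes. ARR3 is AT1G59940 (chr1:22065617-22067233), ARR4 AT1G10470 (chr1:3441988-3444360), ARR7 AT1G19050 (chr1:6577833-6579314) and ARR15 AT1G74890 (chr1:28131447-28133025), all on the minus strand. ARR5 is AT3G48100 (chr3:17758427-17760950) and ARR6 AT5G62920 (chr5:25252007-25254318), also on the minus strand. ARR8 is AT2G41310 (chr2:17221840-17224880), ARR16 AT2G40670 (chr2:16969673-16972113) and ARR9 AT3G57040 (chr3:21109059-21111567), on the plus strand. Each has 5 or 6 exons. Whether reads of exons only or of the whole gene were counted is not given in the sources used here. Most of them fall into pairs of close relatives. Aligned over their whole length, the coding sequences of ARR5 and ARR6 were 78.4% identical, those of ARR8 and ARR9 77.5% and those of ARR7 and ARR15 72.6%. ARR3 and ARR4 shared 52.9% of the coding sequence but 79.1% of the amino acids at aligned positions, with ARR3 the longer protein (323 against 259 residues). Identities at this level leave long stretches of difference, yet how the authors treated reads that match several genes is not given in the sources used here. ARR6 overlaps AT5G62910 on the other strand, and ARR8 and ARR9 overlap annotated antisense loci that were not analysed here. Without a statement on strand, reads of these genes and of their antisense partners cannot be told apart.

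The 250 bases before the annotated start are shown for 2 pairs, ARR5 with ARR6 and ARR7 with ARR15. ARR5 and ARR6 are the closest pair in coding sequence. ARR7 had the largest fall among the genes called at all times in citral roots, and ARR15 the largest fall in citral shoots. The bases are those of RefSeq, build TAIR10.1, given 5′ to 3′ on the strand of the gene. All 4 genes lie on the minus strand. Capitals mark AGATT and its reverse complement AATCT, letters at the core of the DNA sites bound by type-B regulators. The ARR5 window is chr3:17760951-17761200, the ARR6 window chr5:25254319-25254568, the ARR7 window chr1:6579315-6579564 and the ARR15 window chr1:28133026-28133275.
ARR5: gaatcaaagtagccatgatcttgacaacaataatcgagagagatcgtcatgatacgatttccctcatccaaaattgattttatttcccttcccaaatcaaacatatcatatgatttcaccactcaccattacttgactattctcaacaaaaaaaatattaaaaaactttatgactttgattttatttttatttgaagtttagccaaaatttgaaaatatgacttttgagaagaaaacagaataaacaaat
ARR6: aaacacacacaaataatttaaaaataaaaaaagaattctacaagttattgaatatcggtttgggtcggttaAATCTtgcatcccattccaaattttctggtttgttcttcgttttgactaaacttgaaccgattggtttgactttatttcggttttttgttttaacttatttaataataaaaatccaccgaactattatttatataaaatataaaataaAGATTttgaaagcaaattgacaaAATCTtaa
ARR7: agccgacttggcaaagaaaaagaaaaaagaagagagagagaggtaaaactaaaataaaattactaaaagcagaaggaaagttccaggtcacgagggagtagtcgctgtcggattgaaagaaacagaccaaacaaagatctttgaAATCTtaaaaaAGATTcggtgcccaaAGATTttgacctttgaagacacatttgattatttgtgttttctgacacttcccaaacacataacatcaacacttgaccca
ARR15: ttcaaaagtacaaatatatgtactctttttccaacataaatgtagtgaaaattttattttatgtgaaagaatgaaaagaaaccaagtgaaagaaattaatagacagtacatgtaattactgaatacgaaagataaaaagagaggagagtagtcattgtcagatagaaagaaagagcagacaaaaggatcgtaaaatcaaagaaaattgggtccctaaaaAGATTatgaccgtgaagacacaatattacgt
AGATT was searched on both strands, with overlapping matches counted. ARR6 and ARR7 held 3 matches each, those of ARR7 lying 106, 95 and 80 bases before the start, while ARR15 held 1 and ARR5 held 0. Of all 9 promoters 7 held at least 1 match, with 1.44 per promoter, and 62.7% of 21969 promoters of the same length in the table held one, with 1.02 per promoter. The longer motif AGATACG was in 0 of 9 members and in 1.72% of all promoters, the evening element AAAATATCT in 0 of 9 and 2.46%, and the G-box CACGTG in 0 of 9 and 7.25%. A match is a description of letters in this window and no evidence of binding.

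Levels below are in CPM, a gene's reads scaled to the same total in every library, from whole reads recovered from the deposited values, and log2 changes come from limma fits that also carry a scaling factor per library, so the ratio of 2 CPM values can differ from the fitted change. The 30 citral libraries held 1.58 to 3.59 M reads and the 42 control libraries a median of 11.4 M. In 4 ethanol libraries there were fewer than 0.5 M reads (1 each of roots at 0 and 3 h and shoots at 12 and 24 h). These 4 enter the fits with weights but not the means, except the group means behind the correlations below. The one of shoots at 12 h had 6 of the 9 members at the floor but ARR7 at 184 CPM, against a mean of 17.1 CPM in the deep libraries. It had 73.9% of loci at the floor and 0.526% of its reads from mitochondrial loci. The other shallow libraries had 34.8% to 46.2% of loci at the floor and at most 0.00164% mitochondrial reads. A gene at the floor had at most 1 read in that library, except that rounding also allows 2 reads in the shallow root libraries. Such a gene is counted as 0.5 read. Labels of organ held: RBCS1A and LHCB3, genes of photosynthetic cells, summed to 17500 CPM in untreated shoots and 54.9 CPM in untreated roots, and the endodermis gene CASP1 averaged 0.805 CPM in untreated shoots and 102 CPM in untreated roots.

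In untreated seedlings the members split by organ. Of the 9, 5 were called lower in shoots than in roots and 3 higher, at an adjusted p under 0.05 in a limma fit of all 72 libraries. Over all loci 41.5% were called lower in shoots and 36% higher. ARR3 had no more than 1 read in any of the 3 untreated shoot libraries and 6.54, 10 and 6.33 CPM in untreated roots. All 3 shoot libraries thus lay below the 3 root libraries. ARR8 averaged 24.7 ± 0.588 CPM in untreated shoots and 87.4 ± 4.14 CPM in untreated roots (SD, n = 3 each), a log2 change of -1.29 (SE 0.106, limma adjusted p = 6.311e-17). ARR5 (-1.6), ARR6 (-0.99) and ARR4 (-0.91) were also lower in shoots. In the other direction ARR9 was higher in shoots by 0.87, ARR15 by 1.70 and ARR16 by 3.03 on the log2 scale. ARR16, which acts with ARR17 in the stomatal lineage, had 1.57, 2.75 and 2.08 CPM in untreated shoots, against 0.190, 0.334 and 0.511 CPM in untreated roots. ARR7 was the 1 member not called, with 16.3 ± 1.78 CPM in shoots and 18.8 ± 3.33 CPM in roots and groups that overlapped. In 5 members every shoot library lay below every root library and in 3 above (61.8% and 23% of all loci).

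Levels were divided by exon length so that genes can be compared with each other, which assumes that reads of exons were counted. Per kilobase of exon ARR9 led in untreated shoots with 35.2 ± 3.41 CPM per kb, followed by ARR4 with 23.2 ± 1.05 and ARR7 with 17.3 ± 1.89. Next came ARR6 with 10.9 ± 3.15, ARR8 with 10.4 ± 0.257 and ARR5 with 8.10 ± 1.92 CPM per kb. The range of mean ± SD of ARR6 overlapped those of ARR8 and ARR5, which did not overlap each other. ARR15 with 1.68 and ARR16 with 1.03 CPM per kb were far lower, and ARR3 was at the floor. Roots had another order. There ARR4, a regulator known to bind phytochrome B, led with 63.2 ± 5.14 CPM per kb, ahead of ARR8 with 36.9 ± 1.76, ARR5 with 36.3 ± 6.20 and ARR6 with 32.4 ± 0.496. The range of ARR5 overlapped those of ARR8 and ARR6, which did not overlap each other. ARR9 followed with 28.1, ARR7 with 20, ARR3 with 5.81, ARR15 with 0.772 and ARR16 with 0.166 CPM per kb.

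**Figure D1:**
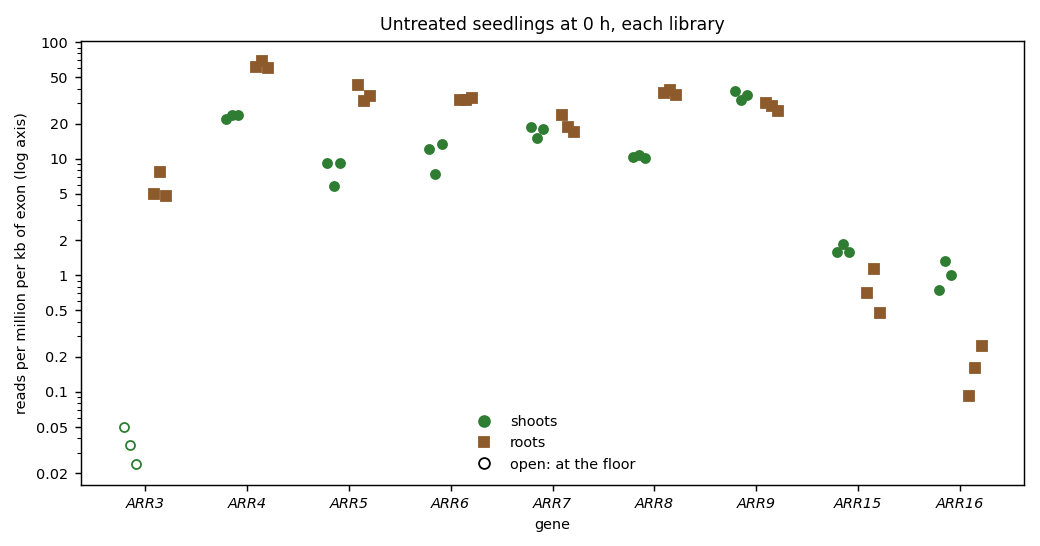
Level in CPM per kilobase of exon (log axis) of the 9 type-A genes in each of the 3 untreated shoot (circles) and 3 untreated root (squares) libraries at 0 h; open symbols are libraries at the floor. ARR3 reads came from roots, ARR9, ARR15 and ARR16 sat higher in shoots, and ARR7 overlapped between organs.

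In roots most members were lower after citral at every time. For members, fell and rose mean lower and higher in citral than in ethanol at the same time, here and below. Of the 9 members 7 fell at 1 h, 6 at 3 h, 8 at 6 h, 8 at 12 h and 6 at 24 h, and none rose by limma, nor did any at an unadjusted p under 0.05. Over all 20147 loci tested in roots, 19.8%, 25.2%, 26.4%, 18% and 18.2% were called lower at these times and 22.8%, 22.1%, 22.3%, 18.2% and 20.4% higher. The median log2 change of the members was -1.40 at 1 h, -1.51 at 3 h, -1.64 at 6 h, -1.34 at 12 h and -0.80 at 24 h, beside -0.02, -0.10, -0.05, 0.01 and 0.03 for all loci. Every citral library lay below every ethanol library in 8 members at 1 h, 7 at 3 h, 7 at 6 h, 8 at 12 h and 7 at 24 h (40.8%, 36.7%, 33.8%, 24.9% and 27.3% of all loci), and above in 0 members (15.6%, 14.8%, 20.4%, 19.2% and 18.2%). ARR5, ARR6, ARR7, ARR8 and ARR9 were called lower at all 5 times. Reads of the 9 genes added up to 138 to 266 CPM in the 15 citral root libraries, with a median of 177, and to 407 to 572 CPM in the 14 ethanol root libraries of 1 to 24 h, with a median of 471.5. In RNA from whole organs, fewer cells of a type and less RNA per cell cannot be told apart.

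**Figure D2:**
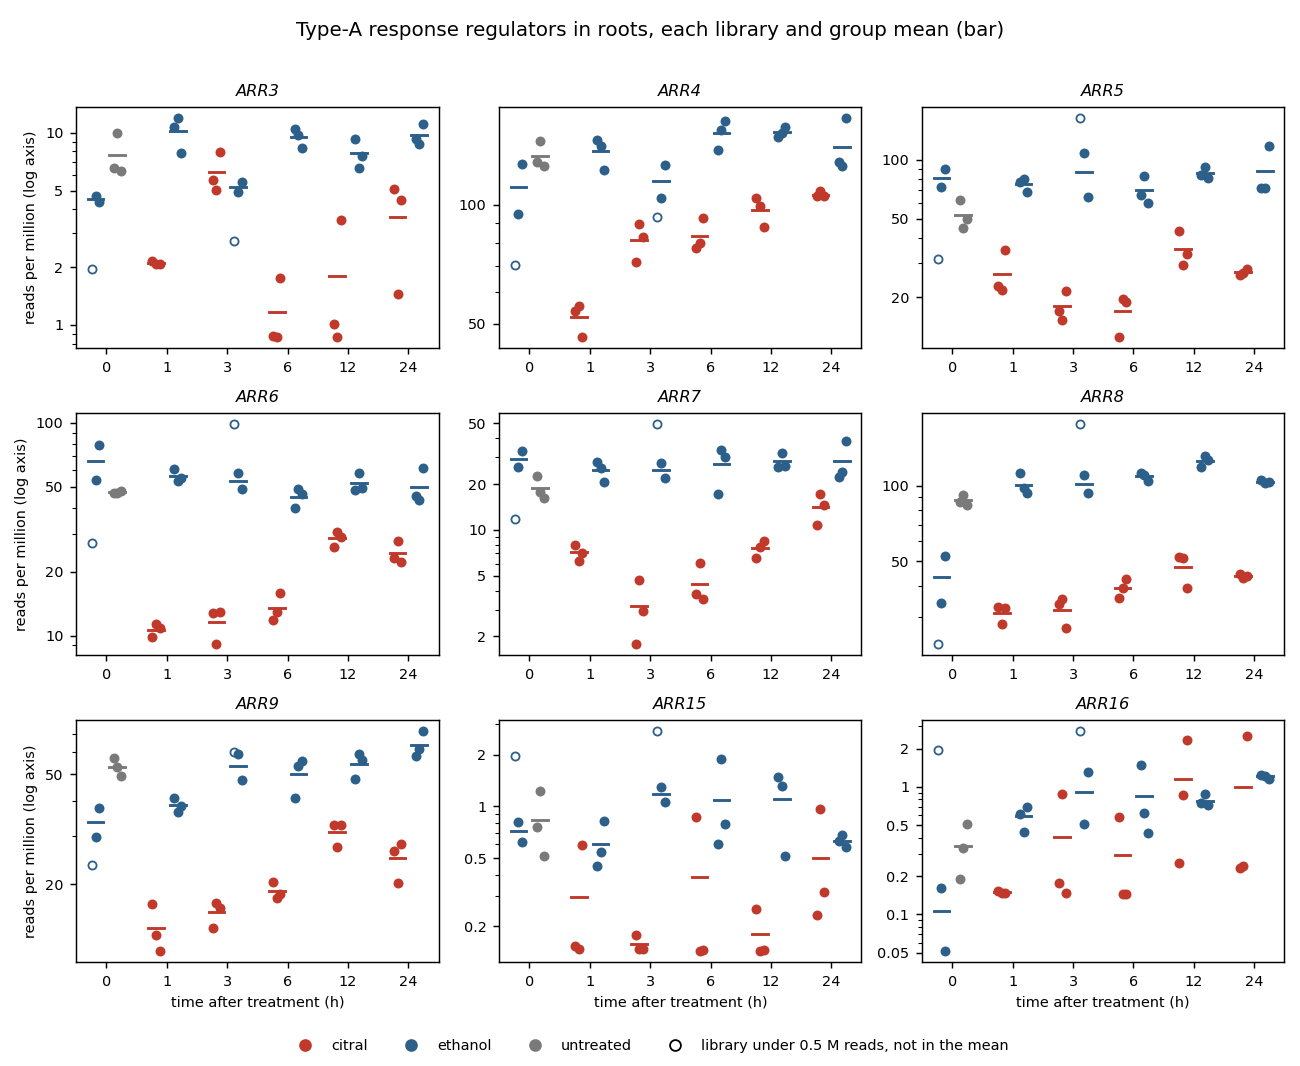
Level in CPM (log axis, scale set per gene) of each type-A gene in every root library against time after treatment, for citral, ethanol and untreated seedlings; bars are group means and open circles are libraries under 0.5 M reads, which are not in the means. Libraries at the floor are drawn at 0.5 read. For ARR4 to ARR9 the citral libraries sit below the ethanol libraries at all 5 times, and ARR3 overlaps at 3 h.

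ARR6 and ARR5, the closest pair, fell early. ARR6 had 9.86, 11.3 and 10.9 CPM in citral roots at 1 h, against 61.0, 53.2 and 55.2 CPM in ethanol roots. The groups were far apart, and the log2 change was -2.11 (SE 0.200, limma adjusted p = 1.58e-11). At 24 h ARR6 had 23.2, 27.9 and 22.2 CPM in citral roots and 45.3, 43.5 and 61.6 CPM in ethanol roots. The groups still did not overlap, but the change was smaller, -0.80 (SE 0.168). ARR5 was lowest at 6 h, with 12.5, 19.5 and 19.0 CPM in citral roots and 65.8, 83.0 and 60.5 CPM in ethanol roots, a log2 change of -2.06 (SE 0.248, limma adjusted p = 4.445e-08). Its changes at 1, 3, 12 and 24 h were -1.40, -2.08, -1.34 and -1.37.

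ARR7 had the largest fall of the always-called genes in roots. At 3 h it had 1.78, 4.71 and 2.94 CPM in citral roots, against 27.3 and 22.0 CPM in the 2 deep ethanol libraries and 49.3 CPM in the shallow one. All 3 citral libraries were below, with a log2 change of -2.74 (SE 0.415, limma adjusted p = 1.281e-06). At 6 h the change was -2.76 (SE 0.326), and the citral roots held 3.78, 6.03 and 3.51 CPM. By 24 h ARR7 had 10.7, 17.3 and 14.6 CPM in citral roots and 22.3, 23.9 and 38.6 CPM in ethanol roots, a change of -0.66 (limma adjusted p = 0.03143) whose call was lost under 4 of 16 alternatives. ARR15, its close relative, was near the limit of detection in roots: in citral roots it was at the floor in all 3 libraries at 3 h, against 1.29 and 1.06 CPM in the deep ethanol libraries. The shallow ethanol library had it at the floor too. With 3 reads over the citral group, the most its floor values allow, the ethanol mean was 3.78 times the citral level at 3 h. At 12 h it was 3.26 times. These ratios include no counting error. ARR15 was called lower at 3, 6 and 12 h, and these calls were lost under 4, 8 and 6 of 14 alternatives each.

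ARR8 and ARR9, a pair with proteins of 225 and 234 residues, were lower at all 5 times. ARR8 had 33.0, 28.2 and 32.8 CPM in citral roots at 1 h and 112, 97.4 and 93.1 CPM in ethanol roots. The groups were well apart, with a log2 change of -1.45 (SE 0.133, limma adjusted p = 7.652e-12). At 3, 6, 12 and 24 h its changes were -1.47, -1.39, -1.41 and -1.18. At 24 h ARR8 still had 44.5, 42.8 and 43.7 CPM in citral roots, against 105, 102 and 103 CPM in ethanol roots. ARR9 changed by -1.22, -1.51, -1.40, -0.86 and -1.21 at 1, 3, 6, 12 and 24 h, and its citral libraries lay below its ethanol libraries each time.

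ARR3 and ARR4 differed from the rest at 3 h. ARR3 had 2.16, 2.08 and 2.07 CPM in citral roots at 1 h, against 10.7, 12.0 and 7.84 CPM in ethanol roots, and 0.872, 0.862 and 1.75 CPM in citral roots at 6 h, against 10.5, 9.68 and 8.33 CPM in ethanol roots. Both differences were called, with log2 changes of -2.12 (SE 0.365) and -2.76 (SE 0.422). Between these times, at 3 h, the citral roots had 5.69, 5.01 and 7.94 CPM and the deep ethanol roots 4.89 and 5.55 CPM. The groups overlapped and the change of 0.52 was not called (SE 0.385, limma adjusted p = 0.2791). ARR4 fell by 1.21 (SE 0.114) on the log2 scale at 1 h, with 53.9, 55.5 and 46.2 CPM in citral roots and 146, 141 and 122 CPM in ethanol roots. At 3 h its change of -0.18 was not called (limma adjusted p = 0.2921), then it was again lower at 6 h (-0.80) and 12 h (-0.63), and at 24 h the change of -0.20 was not called (adjusted p = 0.1138). In CPM its citral libraries lay below its ethanol libraries at 3 and 24 h too. ARR16 was called at none of the 5 times in roots. Its group means in roots were between 0.15 and 1.15 CPM in citral and between 0.588 and 1.21 CPM in ethanol from 1 h on, so few reads that a difference may not have been detectable at this depth.

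In shoots fewer members were called at the early times. At 1 h 0 of the 8 members tested fell and 2 rose (7.91% of all 19585 loci tested in shoots were called lower and 12.6% higher). By limma at an unadjusted p under 0.05, 2 were lower at 1 h, ARR6 and ARR8, and by limma-trend 0 were called. At 3 h 3 fell and 1 rose (26.4% and 23.6%), and at 6 h 3 fell (19.9%). At 12 h 7 fell (19%) and at 24 h 5 fell (17.2%), with none higher from 6 h on (21.6%, 18.9% and 16% of all loci at 6, 12 and 24 h), and none at an unadjusted p under 0.05. ARR3 did not pass the filter of 1 CPM in at least 3 libraries in shoots. The median log2 change over the 8 tested members was -0.54, -0.48, -0.60, -1.22 and -1.34 at 1, 3, 6, 12 and 24 h, beside medians of all loci between -0.07 and -0.01. Citral and ethanol libraries did not overlap, with citral lower, in 4, 5, 3, 4 and 7 of the 8 members tested (30.2%, 39.3%, 25.2%, 9.22% and 18.4% of all loci), and with citral higher in 2 members at 1 h and 1 at 3 h (12.1% and 20.3%). Without the 4 shallow libraries the numbers that fell were 0, 2, 2, 5 and 5: ARR5 lost its call at 3, 6 and 12 h and ARR6 at 12 h. At 12 h, 1 of the 3 ethanol shoot libraries is shallow, so the ethanol means there rest on 2 libraries. The ethanol mean of ARR9 was 29.5 CPM at 0 h and 92.0 CPM at 12 h, and its citral mean at 12 h was 39.6 CPM. For ARR8 the ethanol means were 19.1 and 52.1 CPM and the citral mean 15.7 CPM. The 12 h citral means of ARR4, ARR5, ARR6, ARR7 and ARR15 were, like that of ARR8, below their 0 h ethanol means.

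**Figure D3:**
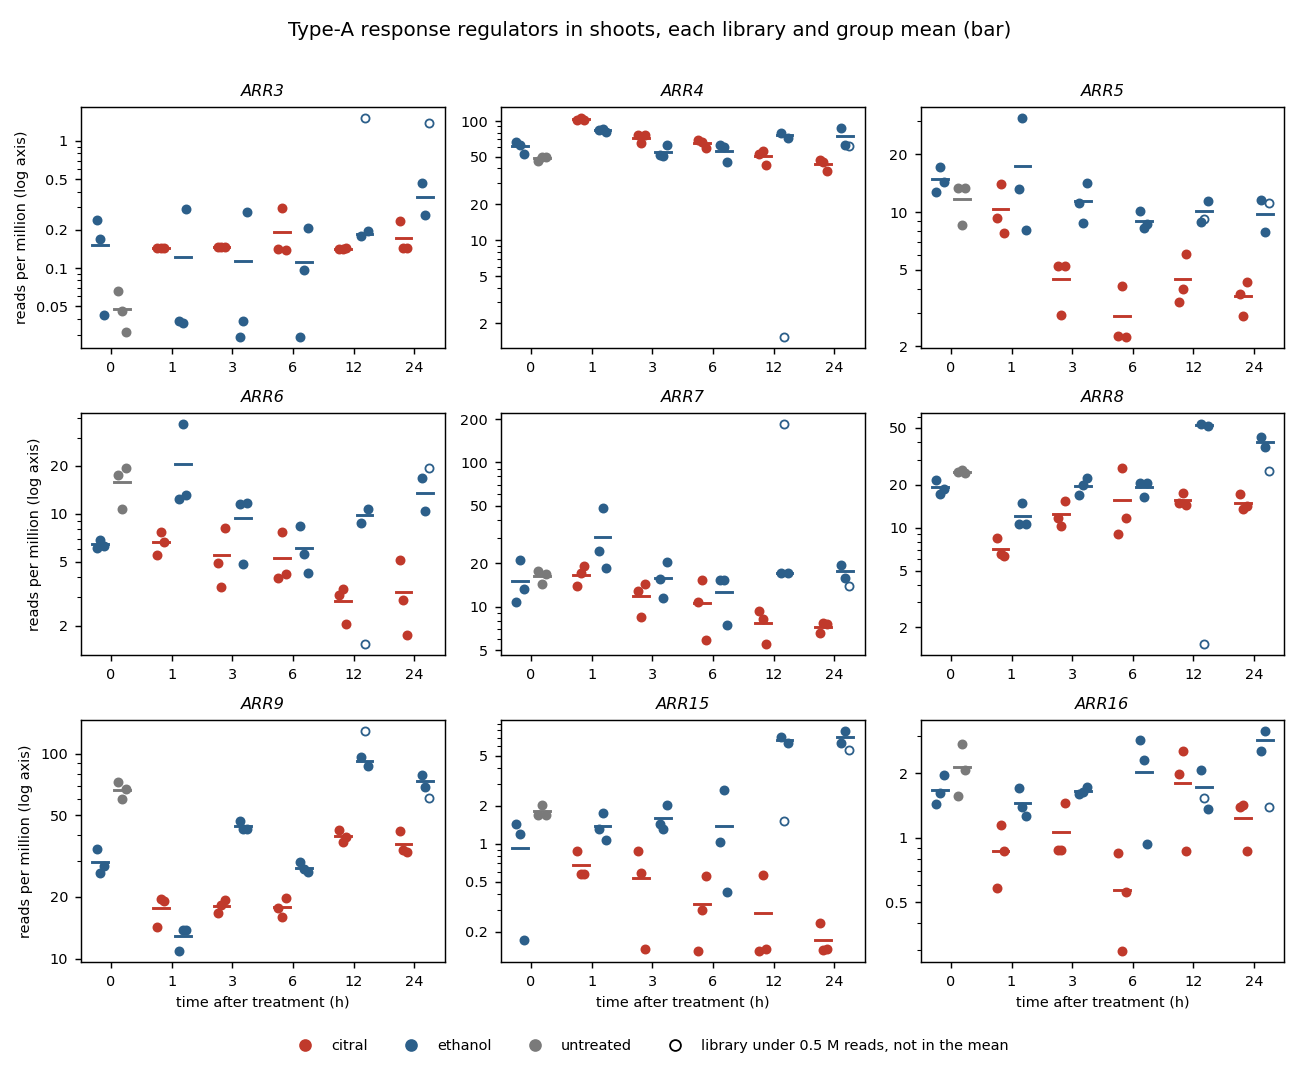
Level in CPM (log axis, scale set per gene) of each type-A gene in every shoot library against time after treatment, for citral, ethanol and untreated seedlings; bars are group means and open circles are libraries under 0.5 M reads, which are not in the means. Libraries at the floor are drawn at 0.5 read. ARR8, ARR9 and ARR15 reach their highest ethanol means at 12 or 24 h, where the citral libraries of ARR15 are at or near the floor.

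ARR4 and ARR9 were higher in citral shoots at 1 h and lower at the end. ARR4 had 102, 107 and 102 CPM in citral shoots at 1 h, against 84.7, 85.5 and 81.3 CPM in ethanol shoots. The groups were apart by a log2 change of 0.44 (SE 0.137, limma adjusted p = 0.02051), a call lost under 9 of 16 alternatives. At 3 h the change was 0.54 (SE 0.125, limma adjusted p = 0.0005328), and at 24 h ARR4 had 46.7, 45.3 and 38.3 CPM in citral shoots, against 87.5 and 63.0 CPM in the deep ethanol libraries, a change of -0.72 (SE 0.165). The calls of ARR4 at 3, 12 and 24 h were lost under 3, 5 and 4 of 16 alternatives, each time with no library weights and with both limma-trend settings. Its fall at 12 h, -0.58, turned to 0.42 without library weights and to 1.26 and 1.38 with limma-trend. None of these settings weights whole libraries. Limma-trend gives the shallow library full weight, while the fit without library weights still weights single values by their expected precision. The shallow library had ARR4 at the floor and also differed in its share of mitochondrial reads. ARR9, which is known to follow the circadian clock, had 14.2, 19.5 and 19.0 CPM in citral shoots at 1 h and 10.9, 13.8 and 13.8 CPM in ethanol shoots. All 3 citral libraries were above, with a log2 change of 0.63 (SE 0.157, limma adjusted p = 0.003206), a call lost under 3 of 16 alternatives. At 3 h ARR9 was lower, with 16.6, 18.3 and 19.3 CPM in citral shoots and 46.9, 43.1 and 43.1 CPM in ethanol shoots, a change of -1.17 (SE 0.131, limma adjusted p = 4.167e-09). Its falls at 3, 6, 12 and 24 h held under all 16 alternatives.

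ARR15 had the largest fall of the family in shoots. At 12 h it had 0.567 CPM in 1 citral shoot library and was at the floor in the other 2, against 7.07 and 6.33 CPM in the deep ethanol libraries. The shallow ethanol library of 12 h also had it at the floor, where 0.5 read is 1.53 CPM. At 24 h it was at the floor in all 3 citral libraries, against 6.37 and 7.87 CPM in the deep ethanol libraries and 5.55 CPM in the shallow one. No citral library came near the deep ethanol libraries at these 2 times. With 3 reads over the citral group, the most its floor values allow, the 24 h mean of the deep ethanol libraries was 21.5 times the citral level. This ratio includes no counting error. The call at 12 h held under all 15 alternatives that gave a value and that at 24 h under all 16 (limma adjusted p = 6.926e-06 at 12 h and 3.241e-05 at 24 h). At 1, 3 and 6 h ARR15 averaged 0.674, 0.535 and 0.332 CPM in citral shoots and 1.39, 1.6 and 1.38 CPM in ethanol shoots, differences that were not called.

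ARR8 followed a like course at a higher level. It had 15.0, 17.6 and 14.5 CPM in citral shoots at 12 h, against 53.0 and 51.2 CPM in the deep ethanol libraries. The shallow ethanol library had it at the floor, so the 3 ethanol values did not all lie above, and the log2 change was -1.71 (SE 0.170, limma adjusted p = 9.536e-10). With limma-trend and a pseudocount of 0.1 CPM, which does not weight libraries, the change was 0.0619. At 24 h the change was -1.43 (SE 0.213). The calls at 12 and 24 h were lost under 3 of 16 alternatives each, no library weights and both limma-trend settings, and those at 3 and 6 h under 6 each. ARR6 was lower at 12 h (-1.72, adjusted p = 0.04484) and 24 h (-2.22, adjusted p = 0.03136 by limma), and ARR7 at 12 h (-1.17, adjusted p = 0.0261), calls that were lost under 11, 6 and 4 of 16 alternatives. ARR5 averaged 2.88 ± 1.09 CPM in citral shoots and 8.99 ± 0.958 CPM in ethanol shoots at 6 h (SD, n = 3 each), a change of -1.74 (SE 0.670, limma adjusted p = 0.03845), a call lost under 7 of 16 alternatives. ARR16 was called at none of the 5 times in shoots, and its largest difference was -1.14 at 6 h (adjusted p = 0.1027).

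**Figure D4:**
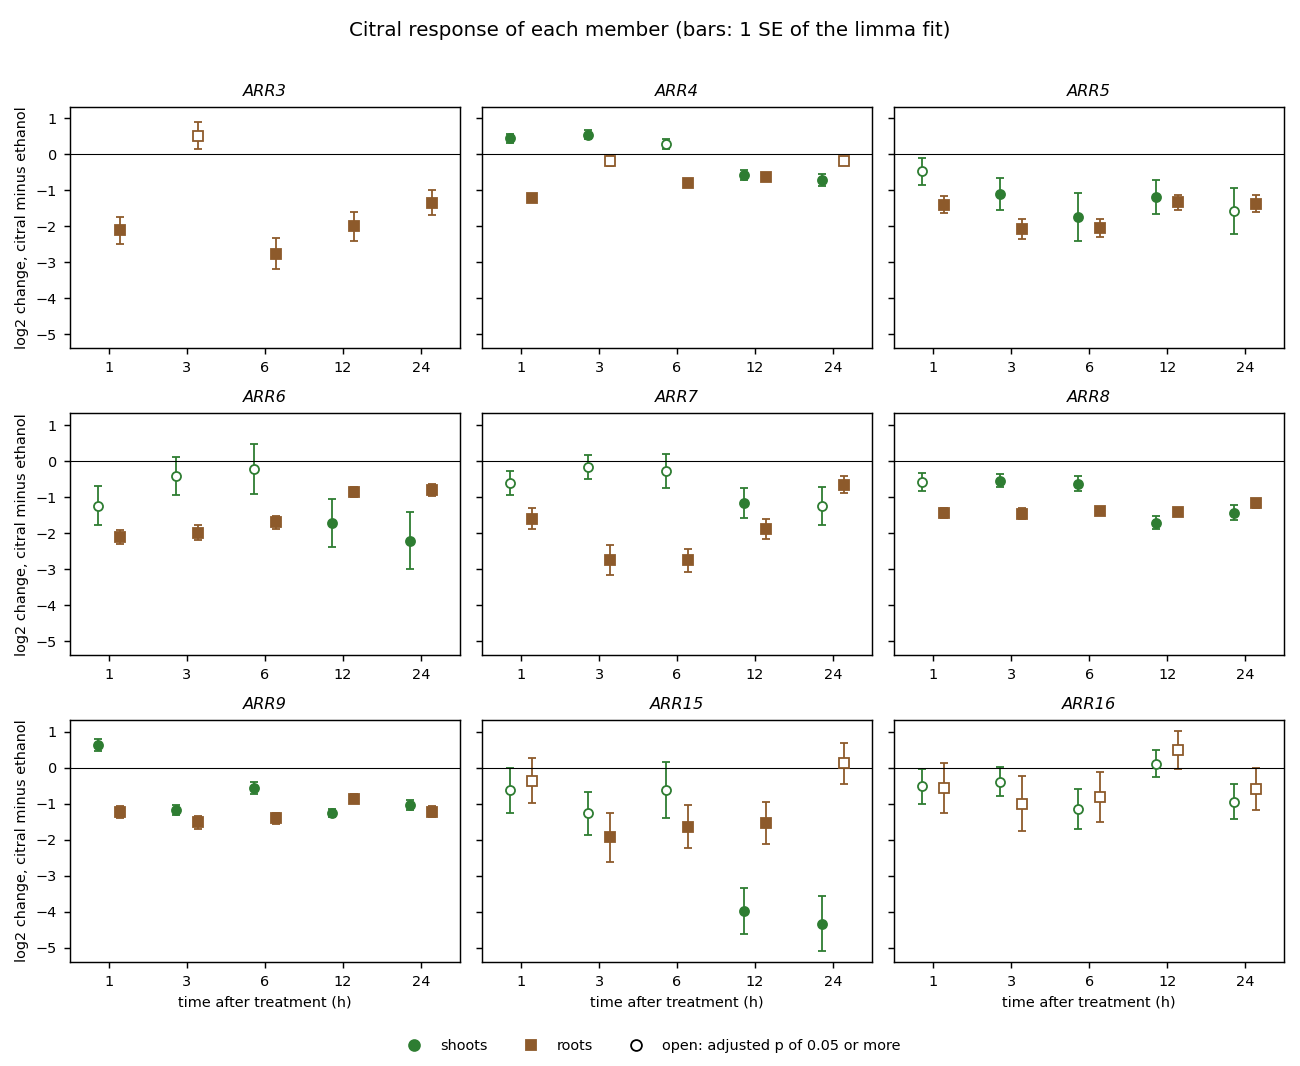
Fitted log2 change, citral minus ethanol, of each type-A gene at 1, 3, 6, 12 and 24 h in shoots (green circles) and roots (brown squares), with bars of 1 SE of the limma fit; open symbols have an adjusted p of 0.05 or more. In roots the points lie below 0 from 1 h on for ARR4 to ARR9, in shoots ARR4 and ARR9 start above 0, and ARR15 is lowest in shoots at 12 and 24 h; ARR3 was tested in roots only.

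The citral response differed between the organs in 6 of the 8 members tested in both, by a limma F test over the 5 times on all 72 libraries; 64% of all loci passed it. ARR4 had the smallest adjusted p (9.436e-13): the citral change in shoots minus that in roots was 1.68 (SE 0.177) at 1 h, 0.73 at 3 h and 1.05 at 6 h, and the differences at 12 and 24 h were not called. ARR9 had an adjusted p of 2.303e-09, with 1.90 (SE 0.234) at 1 h and 0.79 at 6 h. ARR7 differed by 2.65 at 3 h and 2.45 at 6 h, ARR8 by 0.91, 0.96 and 0.71 at 1, 3 and 6 h, and ARR6 by 1.63 at 3 h, each time with the lower value in roots. At 1 h 3 members were called higher in this difference, at 3 h 4 and at 6 h 4 (9.26%, 17.2% and 15.7% of all loci). ARR15 went the other way, with -2.39 at 12 h and -4.53 at 24 h (10.2% and 16.6% of all loci were lower). ARR3 passed the filter of the joint fit but not that in shoots, where it was near the floor, and is left out of these counts. For ARR5 the F test was not passed (adjusted p = 0.1411), and its differences ranged from -0.03 (SE 0.676) at 24 h to 1.07 (SE 0.515) at 3 h. ARR16 was not called either (adjusted p = 0.9628).

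The ethanol controls moved with time as well. By an F test over the 6 ethanol times, all 8 members tested in shoots changed, as did 88% of all loci. In roots 8 of 9 changed, all but ARR5 (limma adjusted p = 0.1932), beside 69.9% of all loci. ARR9 had means of 29.5, 12.8, 44.4, 27.8, 92.0 and 73.9 CPM in ethanol shoots over the 6 times in order (adjusted p = 3.16e-21 by limma), and ARR15 had 0.934, 1.39, 1.6, 1.38, 6.70 and 7.12 CPM. Both were highest at 12 and 24 h. At 1 h ARR8 and ARR9 were lower than at 0 h and ARR4, ARR6, ARR7 and ARR15 higher (29.8% and 27.3% of all loci), and at 3 h ARR4, ARR6 and ARR7 were lower than at 1 h and ARR8 and ARR9 higher (25.3% and 31%). At 6 h ARR9 was lower than at 3 h and no member higher (7.35% and 9.57%). Between 6 and 12 h 6 members were higher at 12 h (20.1% of loci), and 0 were lower (20.1%): ARR15 by 3.23, ARR9 by 1.91, ARR8 by 1.56, ARR6 by 0.96, ARR7 by 0.88 and ARR4 by 0.69 on the log2 scale. From 12 to 24 h limma called 0 of the 8 (3.27% of loci lower and 4.28% higher), and at an unadjusted p under 0.05 2 were lower and 1 higher. At 24 h, the same hour of the day as 0 h, 5 members were above their 0 h level and 0 below (28.6% and 20.4% of loci): ARR15 by 3.97 (SE 0.444), ARR9 by 1.34 (SE 0.111), ARR6 by 1.22, ARR8 by 1.08 and ARR4 by 0.36. The harvest at 12 h fell in the dark, if the treatment time of the protocol applies, and all others fell in the light.

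In roots ARR8 and ARR9 had smaller ranges over the ethanol times than in shoots. The highest group mean over the 6 times was 2.89 times the lowest for ARR8 in roots and 4.31 times in shoots, and 1.89 times for ARR9 in roots and 7.19 times in shoots. The lowest root means of ARR8 and ARR9, 43.3 and 33.7 CPM, were those of ethanol at 0 h, when untreated roots had 87.4 and 53.2 CPM. For the other members the highest root mean was 1.19 times the lowest for ARR7, 1.25 times for ARR5, 1.37 times for ARR4, 1.48 times for ARR6, 1.96 times for ARR15 and 2.26 times for ARR3. For ARR16 it was 11.3 times, on means of 0.107 to 1.21 CPM. ARR8 was higher at 1 h than at 0 h by 1.18 (SE 0.105): it had 112, 97.4 and 93.1 CPM at 1 h, against 34.1 and 52.5 CPM in the deep libraries at 0 h. ARR3 was also higher at 1 h, by 1.24 (SE 0.233), and ARR4 by 0.30, while ARR6 was lower, with -0.30 (19.9% of all loci were higher and 29% lower). At 3 h ARR3 and ARR4 were lower than at 1 h and ARR9 higher (7.5% and 8.01% of loci), at 6 h ARR4 was higher than at 3 h (2.97%) and at 12 h ARR8 higher than at 6 h (10.3%). At 24 h ARR4, ARR6, ARR7 and ARR8 were lower than at 12 h (8.79%). Set against ethanol at 0 h, ARR3, ARR8, ARR9 and ARR16 were higher at 24 h and ARR6 and ARR7 lower (18.4% and 23.1%). The 24 h ethanol means of these genes, also of ARR6 and ARR7, were above their untreated 0 h means. For ARR6 they were 50.1 against 47.3 CPM and for ARR7 28.3 against 18.8 CPM, a comparison that was not tested.

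Ethanol itself, set against no treatment at 0 h, went with differences in both organs. In shoots ARR6, ARR8, ARR9 and ARR15 were lower in ethanol and none was higher (13% and 9.21% of all loci). ARR9 had 34.2, 26.1 and 28.2 CPM in ethanol shoots, against 72.8, 59.9 and 67.1 CPM in untreated shoots, a log2 change of -1.27 (SE 0.0929, limma adjusted p = 4.099e-11) with groups well apart. The calls of ARR6, ARR8 and ARR15 were lost under 4, 5 and 5 of 16 alternatives, and with no library weights or limma-trend ARR9 was the 1 member called lower. Ethanol libraries lay below untreated ones in 4 members and above in 1 (14.8% and 19.6% of all loci). In roots ARR8 and ARR9 were lower and ARR5, ARR6 and ARR7 higher (10.5% and 15%). ARR8 had 34.1 and 52.5 CPM in the deep ethanol roots and 86.2, 92.0 and 83.9 CPM in untreated roots, a change of -0.99 (SE 0.110). ARR5 was higher in ethanol roots by 0.66, ARR6 by 0.51 and ARR7 by 0.68, with groups that overlapped, since the shallow ethanol library was low in all 3, and these calls were lost under 4, 3 and 4 of 16 alternatives. In 3 members the ethanol root libraries all lay below the untreated ones (24.3% of all loci), and in 0 above (12.5%). No untreated seedlings were sampled at later times in these data.

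How far members moved together over the 12 group means of an organ is given as a description, since the groups share time points and the citral groups share a low depth. These group means of log2 CPM include the shallow ethanol libraries without weights. The one of shoots at 12 h, with most members at the floor, thus counts in full in the shoot values below. In roots ARR5 and ARR7 had a Pearson r of 0.937, ARR5 and ARR6 0.929, ARR6 and ARR7 0.92, ARR6 and ARR9 0.909 and ARR8 and ARR9 0.9, and the lowest pair was ARR3 and ARR16 with 0.199. In shoots the highest were ARR8 and ARR16 with 0.818, ARR8 and ARR9 with 0.782 and ARR7 and ARR15 with 0.768, and ARR4 and ARR9 had -0.656. The coding sequences of ARR5 and ARR7 were 64.2% identical and those of ARR6 and ARR9 47.6%. Among 15939 root loci that are no members and average at least 5 CPM, those most like the mean of the 9 genes were AT1G52070 (r = 0.981), PSP (0.977), EXO70C2 (0.975), FUT5 (0.974) and VSR6 (0.972). Among 15084 shoot loci they were AT3G16060 (r = 0.903), LTPG1 (0.887), GPAT4 (0.882), TBL2 (0.87) and TON1B (0.865), against the mean of 8 members.

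The rest of the pathway was read from 8 lists of 71 genes, of which 61 are in the table; the lists were drawn up with earlier results of these data known, and the other 10 genes were not analysed here. Genes of cytokinin synthesis were called in both directions. In roots 4, 4, 5, 5 and 4 of 15 tested were lower in citral at 1, 3, 6, 12 and 24 h, and 5, 2, 4, 1 and 2 were higher. Beside these and the other root counts stand 19.8%, 25.2%, 26.4%, 18% and 18.2% of all loci called lower and 22.8%, 22.1%, 22.3%, 18.2% and 20.4% higher. The lists were not set against this background by a test. CYP735A2, the enzyme that makes trans-zeatin precursors, had 6.81 ± 0.291 CPM in citral roots and 32.8 ± 4.79 CPM in ethanol roots at 1 h (SD, n = 3 each), a log2 change of -1.95 (SE 0.251, limma adjusted p = 3.465e-08), and it was lower at all 5 times. At 6 h it averaged 3.19 CPM in citral roots and 65.3 CPM in ethanol roots. LOG3 and LOG7, of the family that releases active cytokinin, were higher in citral roots at 1 h by 2.37 and 0.88. In shoots IPT3 and IPT9, isopentenyltransferases of cytokinin synthesis, were lower at 3 h, with -0.83 and -0.82, and LOG7 was higher by 1.06.

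Genes of breakdown, conjugation and transport were also called in both directions. Of 10 breakdown and conjugation genes tested in roots, 3, 2, 3, 2 and 3 were lower in citral and 2, 1, 1, 4 and 1 higher at the 5 times, and of 3 transport genes 2, 1, 2, 1 and 1 were lower and 1, 0, 0, 0 and 0 higher. UGT85A1, which attaches glucose to zeatin, was higher in citral at all 5 times in roots and had 389 ± 28.7 CPM in citral shoots and 61.2 ± 7.67 CPM in ethanol shoots at 3 h (SD, n = 3 each). CKX4, a cytokinin oxidase, had 9.90 ± 5.86 CPM in citral roots and 29.1 ± 4.94 CPM in ethanol roots at 12 h (SD, n = 3 each), a change of -1.86 (SE 0.232), and it too was lower at all 5 times. The CKX1 oxidase was higher in citral roots at 12 h (1.06) and lower in citral shoots at 3 h (-1.76). ABCG14, which exports cytokinin from roots towards the shoot, was lower in citral roots at 1, 3, 6 and 12 h: at 1 h it had 64.4 ± 4.30 CPM in citral roots and 241 ± 45.5 CPM in ethanol roots, a change of -1.64 (SE 0.0902).

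Receptor genes were called in both directions. Of 9 receptor and carrier genes tested in roots, 2, 3, 4, 3 and 3 were lower in citral and 3, 2, 2, 2 and 2 higher at the 5 times. In roots AHK4 was lower in citral at all 5 times and AHK3 higher at all 5. At 6 h AHK4 averaged 52.6 ± 2.32 CPM in citral roots and 157 ± 14.0 CPM in ethanol roots, a change of -1.55 (SE 0.0904), and AHK3 averaged 226 ± 16.4 CPM in citral roots and 119 ± 8.80 CPM in ethanol roots, a change of 0.99 (SD, n = 3 each). In shoots at 3 h AHK3 was higher by 0.58 and AHK2 lower, with -0.97. Of the 6 type-B regulators tested in roots, 0, 2, 1, 0 and 1 were lower in citral and 5, 2, 2, 0 and 1 higher at 1, 3, 6, 12 and 24 h. The changes at 1 h in roots were 1.43 for ARR14, 0.43 for ARR10 and 0.28 for ARR1, and in shoots at 3 h they were 0.74 for ARR12, 0.60 for ARR2 and -1.42 for ARR14. In CPM at 1 h, ARR14 averaged 3.31 in citral roots and 1.73 in ethanol roots, ARR10 57.2 and 51.4, and ARR1 125.4 and 125.8. The CPM values of ARR10 and ARR1 overlapped between the groups, so their fitted rises depend on the scaling factors. All 4 KMD genes, for F-box proteins that mark type-B regulators for breakdown, were higher in citral shoots at 1, 3, 12 and 24 h and 3 of them at 6 h, and 3, 2, 3, 3 and 4 of them were higher in citral roots. At 1 h KMD4 had 698 ± 43.6 CPM in citral shoots and 186 ± 64.9 CPM in ethanol shoots (SD, n = 3 each).

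Among the other cytokinin targets IAA3, an auxin-signalling repressor that type-B regulators induce, was lower in citral at all 5 times in both organs. It had 16.4 ± 1.91 CPM in citral shoots and 68.5 ± 9.11 CPM in ethanol shoots at 3 h (SD, n = 3 each), a change of -1.90 (SE 0.163). GATA21 and GATA22, transcription factors for chloroplast development, were lower in citral shoots at 3 h, with -1.87 and -1.48, and both were also lower at 1, 12 and 24 h. At 6 h GATA22 was higher in citral shoots, with 0.75 (limma adjusted p = 0.004835), and GATA21 was not called (0.29). The response factors CRF4 and CRF5 were higher in citral roots at 1 h by 0.49 and 0.87. Of this list, 2 of 8 tested were lower in citral roots at each of the 5 times and 2, 2, 0, 2 and 0 higher, and in citral shoots 5, 6, 1, 7 and 5 of 10 were lower and 0, 2, 3, 1 and 1 higher. Of all loci, 7.91%, 26.4%, 19.9%, 19% and 17.2% were called lower in citral shoots at these times and 12.6%, 23.6%, 21.6%, 18.9% and 16% higher. The 3 genes of the list of type-C regulators and ARR17 were not analysed here.

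Markers of several cell types differed in the same citral libraries. COBL9, a root hair gene, and CASP1 were called lower in citral roots at all 5 times. COBL9 averaged 4.23, 0.335, 2.32, 3.74 and 8.44 CPM in citral roots at 1, 3, 6, 12 and 24 h, against 25.0, 23.5, 27.0, 31.0 and 23.9 CPM in ethanol roots. CASP1 averaged 68.4, 41.0, 85.7, 65.6 and 60 CPM in citral roots and 157, 162, 128, 149 and 148 CPM in ethanol roots. Of 4 genes of dividing cells (CYCB1;1, KNOLLE, CDKB1;1 and CDKB2;1), 1, 4, 4, 0 and 0 were lower in citral roots and 0, 0, 0, 2 and 2 higher. Their sum ranged from 30.5 to 33.3 CPM in citral roots and from 107 to 120 CPM in ethanol roots at 6 h, and from 104 to 111 CPM in citral roots and from 88.1 to 94.7 CPM in ethanol roots at 24 h. Of 3 genes of the vascular cambium 0 were lower in citral roots at 1, 6, 12 and 24 h and 1, PXY, at 3 h. Another of them, ATHB8, was higher in citral roots at 1, 3 and 6 h. Of 2 phloem genes 0 were lower at any time. The phloem gene SUC2, a sucrose carrier, was higher in citral roots at 3, 12 and 24 h, by 0.61, 0.91 and 1.38, and in citral shoots at all 5 times, by 1.01 at 1 h. Both xylem genes were lower in citral roots at 24 h only, and at most 1 of 2 was higher at other times.

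In shoots the photosynthesis genes RBCS1A and LHCB3 were both lower in citral at 1, 3 and 6 h, and RBCS1A at 12 and 24 h. Their sum ranged from 11500 to 12300 CPM in citral shoots and from 13500 to 15200 CPM in the deep ethanol shoots at 12 h, when most type-A genes were called. The dividing-cell genes were lower in citral shoots in 0, 3, 4, 0 and 1 of 4 cases at the 5 times, and summed to 35.0 to 43.7 CPM in citral shoots and 35.3 to 36.2 CPM in ethanol shoots at 12 h. Cambium genes were lower in 0, 3, 0, 1 and 2 of 3 cases. COBL9 was called lower in citral shoots at 12 and 24 h, with 0.143 and 0.552 CPM in citral shoots and 1.03 and 2.50 CPM in ethanol shoots. The 12 h citral value is the floor in all its libraries, and the ethanol means rest on 2 deep libraries each. The part of these cell types in the type-A result was not tested.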

How the data were processed

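RNA was taken from shoots and roots with RNeasy columns and made into TruSeq libraries, per the labels' protocols. The authors deposited 1 table of TMM-normalised values for 22122 loci and 72 libraries, all whole numbers of at least 1, which are treated as a score and not as counts. The build was TAIR10, per the submitters' processing notes; no aligner, counter or strand setting is given in the sources used here. Columns of the table left unused numbered 0.

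Within each library the deposited score values were whole numbers of reads multiplied by a single factor (0.6656 to 1.311) and rounded, so reads were recovered by dividing by that factor. A value of 1 stands for 0 or 1 read and was set to 0.5 read. In the shallow root libraries, which have the smallest factors, it can also stand for more than 1 read. Recovered depth was 0.183 to 20.6 M reads, with a median of 3.56 M; it limits low members most in the citral libraries. Ratios given against floor values take the most reads that the floor allows and include no counting error. None of the 72 replicate pairs was identical.

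Reads were recovered and results summarised in Python 3.11.15 (pandas 2.3.3, numpy 2.4.6). TMM factors were computed anew in R 4.3.3 (30% and 5% trimmed, loci of at least 10 CPM). Voom with library quality weights and robust moderated tests were run in limma 3.58.1 (R 4.3.3), 1 fit per organ over 12 groups and 1 over all 72 libraries for differences between organs. Loci needed 1 CPM in at least 3 libraries: 19585 in shoots, 20147 in roots and 21092 in the joint fit passed, with 8, 9 and 9 members. Calls are at a Benjamini-Hochberg adjusted p under 0.05 over all loci tested. Libraries under 0.5 M reads stayed in the tests and out of means, except the unweighted group means of log2 CPM used for correlations and likeness. The code was tested on simulated data. Promoters and names came from RefSeq TAIR10.1, where 21979 loci were named, with Biopython 1.88; figures were drawn with matplotlib 3.10.9.

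All 9 members are named, and from each pathway list up to 3 called genes with the smallest p per organ at the time with most genes of the list called, 5 loci per organ most like the members, and the cell type markers as checks. Members and lists were chosen with earlier results of these data known. Alternatives were another scaling (library size, the authors' factors, quantiles), no weights, limma-trend on log2(CPM + 0.5) or log2(CPM + 0.1), other filters, only the groups compared, and each library left out.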

Additional observations from a re-analysis of the deposited data

Results flagged for a closer look

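For 6 members tested in both organs the citral response differed between shoots and roots by the limma F test of that difference over 5 times, which 64% of all loci passed. For ARR4 the adjusted p was 9.436e-13, with the citral change in shoots minus that in roots at 1.68 after 1 h. For ARR9 it was 2.303e-09, with 1.90 after 1 h. For ARR7 it was 1.857e-05, with 2.65 after 3 h, and for ARR6 0.002788, with 1.63 after 3 h. For ARR15 it was 5.955e-05, with -4.53 after 24 h. For ARR8 it was 8.659e-05, and without library weights the adjusted p was 0.1185.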

How the results depend on the processing

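In roots the calls of ARR5, ARR6, ARR8 and ARR9 at 5 times, of ARR7 and ARR4 wherever called up to 12 h and of ARR3 at 1, 6 and 12 h kept direction and threshold in all alternatives run, and in shoots so did those of ARR9 from 3 h on and of ARR15 at 12 and 24 h (16 alternatives each, and 15 for ARR15 at 12 h). Of the checks of called members with all replicates kept, 576 held, 63 fell short of the threshold and 4 reversed; with a replicate left out 323 held and 67 fell short. The cause of these shifts was not tested except where a setting's construction is named.

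The reversals of called members were ARR4 in shoots at 12 h (0.42 without weights, 1.26 and 1.38 with limma-trend at pseudocounts of 0.5 and 0.1) and ARR8 there (0.0619 at 0.1). Uncalled members reversed in roots: ARR15 at 1 h (0.0242, quantiles), ARR15 at 24 h (-0.21 and -0.42 with limma-trend) and ARR16 at 0 h (0.20 and 0.0419). With 1 replicate left out, uncalled values crossed 0: in shoots ARR5 at 1 h ran from -0.90 to 0.12, ARR6 at 6 h from -0.61 to 0.00646, ARR7 at 3 h from -0.44 to 0.0144 and at 6 h from -0.82 to 0.26, and ARR16 at 12 h from -0.23 to 0.44. In roots ARR15 at 0 h ran from -0.16 to 0.53 and at 24 h from -0.27 to 0.47, and ARR16 at 0 h from -1.23 to 0.30 and at 12 h from -0.14 to 0.92.

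Counts of members lower moved to 1 in shoots at 1 h (library size, the authors' factors), to 1 in shoots at 0 h (no weights, both limma-trend settings), to 4 in shoots at 12 h (both limma-trend settings) and to 4 in roots at 0 h (library size). Medians over the members in shoots moved to -0.31 (library size) and -0.43 (5 CPM filter) at 0 h and, with limma-trend at 0.5 and 0.1, to -0.86 and -0.90 at 12 h and to -1.15 and -1.18 at 24 h. In roots they moved at 1 h to -1.61 (library size), -1.51 (the authors' factors) and -1.48 (only 2 groups), and at 3 h to -1.78 (library size). At 6 h they were -1.49 (quantiles), -1.39 (no weights) and -1.39 and -1.41 (limma-trend), and at 12 h -1.03 (quantiles) and -1.15 (limma-trend at 0.5). At 24 h they were -0.94 (no weights), -0.96 and -0.97 (limma-trend), -1.18 (5 CPM) and -1.0 (only 2 groups), and at 0 h 0.0865 and 0.0419 (limma-trend). Scaling by library size alone moved the median of all loci to -0.23, -0.36 and -0.11 in roots at 1, 3 and 6 h and to -0.17 and -0.18 in shoots at 1 and 3 h; relative to it the members stood at -1.38 in roots at 1 h, as with TMM.

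With each replicate left out in turn, medians ran from -0.42 to -0.36, -0.75 to -0.30, -0.74 to -0.35, -0.72 to -0.35, -1.34 to -1.19 and -1.41 to -1.22 in shoots from 0 h to 24 h in order, and from -0.25 to 0.20, -1.48 to -1.30, -1.63 to -1.49, -1.64 to -1.37, -1.45 to -1.03 and -1.17 to -0.75 in roots. Members lower numbered 1 to 4, 0, 1 to 3, 1 to 4, 3 to 5 and 3 to 6 in shoots and 1 to 2, 7, 5 to 6, 7 to 8, 7 to 8 and 5 to 6 in roots. The libraries whose loss left 1 member lower in shoots were ethanol replicate 3 at 0 h, ethanol replicate 3 and citral replicates 1 and 2 at 3 h, and citral replicates 1 and 3 at 6 h. At 12 h 3 were left without ethanol replicate 1 or 3, where 1 deep and 1 shallow library remain, and at 24 h 3 without ethanol replicate 1. Without the shallow libraries the F test over ethanol times was not passed by ARR16 in shoots (adjusted p = 0.05321) and ARR15 in roots (0.06512). No paired analysis was possible because the labels give no replicate numbers that tie samples across groups. Citral libraries of 1.58 to 3.59 M reads limit ARR3, ARR15 and ARR16, and the shallow ethanol libraries limit shoots at 12 and 24 h.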
